A study of Mus musculus with 108 samples.

Results

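The serpin genes are the genes whose platform annotation symbol begins with Serpin. The annotation named 52 of them among 19514 genes, on 68 probes, and 34 of the 52 had a value on at least 1 array. They were followed in livers of female ovariectomized C57BL/6 mice that received 1 of 2 PPAR alpha activators, clofibrate or Wy-14643, each at 300 mg/kg by daily gavage, or the sesame oil vehicle. Livers were taken 2, 4, 8, 12, 18 and 24 h after a single dose, and 1, 4 and 14 days after the first of daily doses. Each compound had a vehicle group of its own at each of the 9 times, and each of the 36 groups held 3 single-colour arrays, 108 in all. All mice were without ovaries, so every value describes livers without ovarian hormones. The labels give no age, and they do not say that livers were pooled.

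Serpins are proteins of 1 common fold, most of which inhibit proteases by acting as a bait that traps the enzyme in an inactive complex. The liver makes the serpins of blood plasma, among them antitrypsin, antithrombin, antiplasmin and the C1 inhibitor, and also members that inhibit nothing and carry thyroxine or cortisol. A further branch, the Serpinb genes, encodes inhibitors that stay inside cells and guard against proteases such as neutrophil elastase, cathepsin G and granzyme B. PPAR alpha is the fatty acid sensing nuclear receptor of hepatocytes. Clofibrate, an ester of a phenoxy acid, and Wy-14643, a pyrimidinyl thioacetic acid, both activate it. In bulk liver RNA a fall from fewer cells of a type and a fall from less RNA per cell cannot be told apart.

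Of the 52 genes, 18 were Serpina genes, 17 of them on chromosome 12 and Serpina7 on X, and 14 of the 18 had values. Another 25 were Serpinb genes, 11 on chromosome 1 and 14 on chromosome 13, of which 3 and 9 had values. The other 9 were Serpinc1, Serpind1, Serpine3, Serpinf1, Serpinf2, Serping1, Serpinh1, Serpini1 and Serpini2, and all but Serpini1 had values. The chosen probes of 17 members had values on all 108 arrays. The other 17 were listed in 1 to 35 of the 36 groups on all 3 arrays, and a comparison was made only where both groups were complete.

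Promoter windows listed for 3 members are shown because these had the largest mean differences with Wy-14643. The difference was upward for Serpina7 and downward for Serpina3j and Serpina11. They run from 250 bases before to 50 bases after the annotated start in RefSeq (GRCm38.p6), at chrX:139085187-139085486 on the minus strand, chr12:104314320-104314619 on the plus strand and chr12:103989908-103990207 on the minus strand. Capitals mark matches, on either strand, to short motifs of 5 kinds of factor that are spelled out after the sequences.
Serpina7: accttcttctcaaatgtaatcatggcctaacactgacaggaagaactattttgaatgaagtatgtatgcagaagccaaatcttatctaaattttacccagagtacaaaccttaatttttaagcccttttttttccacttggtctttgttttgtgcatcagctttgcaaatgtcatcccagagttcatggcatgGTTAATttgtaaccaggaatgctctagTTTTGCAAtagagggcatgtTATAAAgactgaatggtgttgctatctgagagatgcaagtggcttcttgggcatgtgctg
Serpina3j: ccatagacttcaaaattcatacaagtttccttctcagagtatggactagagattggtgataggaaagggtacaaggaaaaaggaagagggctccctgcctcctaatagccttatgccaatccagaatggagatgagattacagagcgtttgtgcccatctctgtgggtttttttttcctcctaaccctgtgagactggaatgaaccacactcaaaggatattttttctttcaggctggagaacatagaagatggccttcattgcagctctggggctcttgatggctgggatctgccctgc
Serpina11: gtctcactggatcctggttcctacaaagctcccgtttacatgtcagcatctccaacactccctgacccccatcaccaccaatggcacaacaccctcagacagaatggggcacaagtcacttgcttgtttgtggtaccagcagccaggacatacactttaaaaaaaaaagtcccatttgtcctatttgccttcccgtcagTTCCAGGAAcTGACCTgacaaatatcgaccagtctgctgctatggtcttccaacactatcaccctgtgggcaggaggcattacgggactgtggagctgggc
The Serpina7 window held GTTAAT, a half-site of the liver factor HNF1, from 57 bases before the start. It also held a match to TTGCNNAA, a site of the C/EBP factors, from 30 bases before the start. A TATA box, written as TATAAA, began 10 bases before the start. The Serpina11 window held a match to TTCNNNGAA, a site of the STAT factors, from 51 bases before the start. From 41 bases before the start it held, on the other strand, AGGTCA, the half-site of many nuclear receptors. No match overlapped another. None of these letters occurred in the Serpina3j window. That window lies downstream of another start listed for this gene, at base 104300722 of chromosome 12. The region before that other start is not shown, so the absence says nothing of it. RefSeq promoters were found for 45 of the 52 members, and AGGTCA stood in 13 of them (28.9%), against 16.0% of 27025 promoters of the same length. The full PPAR element, a direct repeat of that half-site with 1 base between, stood in 0 of the 45 and in 12 of the 27025. Several of the 13 are neighbouring Serpinb9 copies, so they are not independent examples.

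Values are log2 intensities, scaled so that every array had the same 75th percentile. The arrays listed 15750 to 22227 of 41096 probes each, which limits what can be compared for dim genes, and the scanner limit lay between log2 15.6 and 16.5. Serpina1d and Serpinc1 sat at that limit on all 108 arrays on their chosen probes, Serpina1b on 105, Serpina1c and Serpinf2 on 82, Serpind1 on 81 and Serpina6 on 26. These genes were left out wherever both groups were wholly at the limit, and a fold is only a lower bound where 1 group was. Replicate 3 of the 1 day vehicle group stood apart in both arms: its mean correlation with its group was 0.922 in the clofibrate arm and 0.931 in the Wy-14643 arm, against a median of 0.978 over the 108 arrays. Replicate 1 of the 4 h and replicate 3 of the 8 h clofibrate-treated groups, from which the single-time clofibrate calls come, were also low, at 0.927 and 0.934. Same-numbered vehicle arrays of the 2 arms tended to deviate together, with a median correlation of 0.29 and a highest of 0.83, for replicate 3 of 1 day. The lowest was -0.12, and differently numbered vehicle pairs reached 0.44. All same-numbered pairs exceeded every other pair at 5 of 9 times. For same-numbered treated arrays the median was -0.02. Whether the arms share vehicle animals is not stated in the labels, so the arms are not treated as independent evidence. In the clofibrate arm, vehicle replicate 1 at 14 days was nearly a copy of vehicle replicate 1 at 4 days (correlation 0.99998, the next highest pair being 0.99532). Known targets of the receptor rose with both compounds. All 7 known PPAR alpha targets tested were called higher over time with Wy-14643 (median log2 difference 2.76), and 6 of 7 with clofibrate.

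Wy-14643 lowered several secreted serpins of chromosome 12 and raised Serpina7 and, at 14 days, the Serpinb1 genes. Of 26 members compared at 1 time or more, 16 passed the test at 1 or more times, 6 of them higher (Serpina7, Serpinb1a, Serpinb1b, Serpinb1c, Serpinb6a and Serpinb6c) and 10 lower (Serpina10, Serpina11, Serpina1c, Serpina3f, Serpina3j, Serpina3n, Serpinb9, Serpind1, Serpinf2 and Serping1). Of all 12721 genes compared at 1 or more times 46.8% passed, 20.1% higher and 28.7% lower at some time. Passing means an adjusted p under 0.05 in a limma fit over all arrays of the arm, with Benjamini-Hochberg adjustment over all genes tested in that comparison. For the mean over the 9 times, 9 of 13 members passed, 2 higher and 7 lower, where 56.4% of all 10345 genes tested passed, 20.8% higher and 35.6% lower. That share is near the background, and the members' median was -0.26 against -0.07 for all genes on the log2 scale. With 1 replicate number left out in turn the count of 9 became 7 to 8. With the values as deposited, unscaled, the split was 3 higher and 4 lower. Where arrays are given below, groups without overlap were common among all genes. With Wy-14643 the share ran from 16.1% at 2 h to 41.3% at 18 h. With clofibrate it ran from 3.86% at 1 day to 25.2% at 8 h.

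The size of the Wy-14643 effect changed with time for 6 of 13 members, where it did for 20.2% of all genes (limma moderated F). The count was 3 with quantile normalization, and 2 without treated replicate 1 or without vehicle replicate 2. The number of members past the test was larger at the later times. At 2 h 1 of 18 passed (4.21% of all genes), at 4 h 0 of 17 (10.3%) and at 8 h 0 of 21 (16%); by unadjusted limma p under 0.05, 1 member passed at 4 h and 3 at 8 h. At 12 h 3 of 20 passed (19.5%), at 18 h 4 of 18 (22.3%) and at 24 h 6 of 19 (17.3%). With the replicate number as a block the 18 h count was 7, adding Serpina10, Serpinf1 and Serping1, while 40.1% of all genes passed in that fit. After daily dosing 9 of 20 passed at 1 day (23.4%), 4 of 23 at 4 days (8.24%) and 10 of 21 at 14 days (14.8%). The 14 day split was 6 higher (9.55% of all genes) and 4 lower (5.28%). It was 4 higher and 5 lower with quantile normalization, where Serpinb1b and Serpinb1c were not compared. At 18 h 1 was higher (10.2%) and 3 lower (12.1%), against 1 and 8 with unscaled values. At 1 day it was 1 higher (7.48%) and 8 lower (15.9%) after scaling but 5 higher and 3 lower without it, and at 24 h 1 higher (6.79%) and 5 lower (10.5%) against 3 higher and 0 lower. The median of all genes lay 0.62 and 0.39 higher without scaling at these times.

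**Figure D1:**
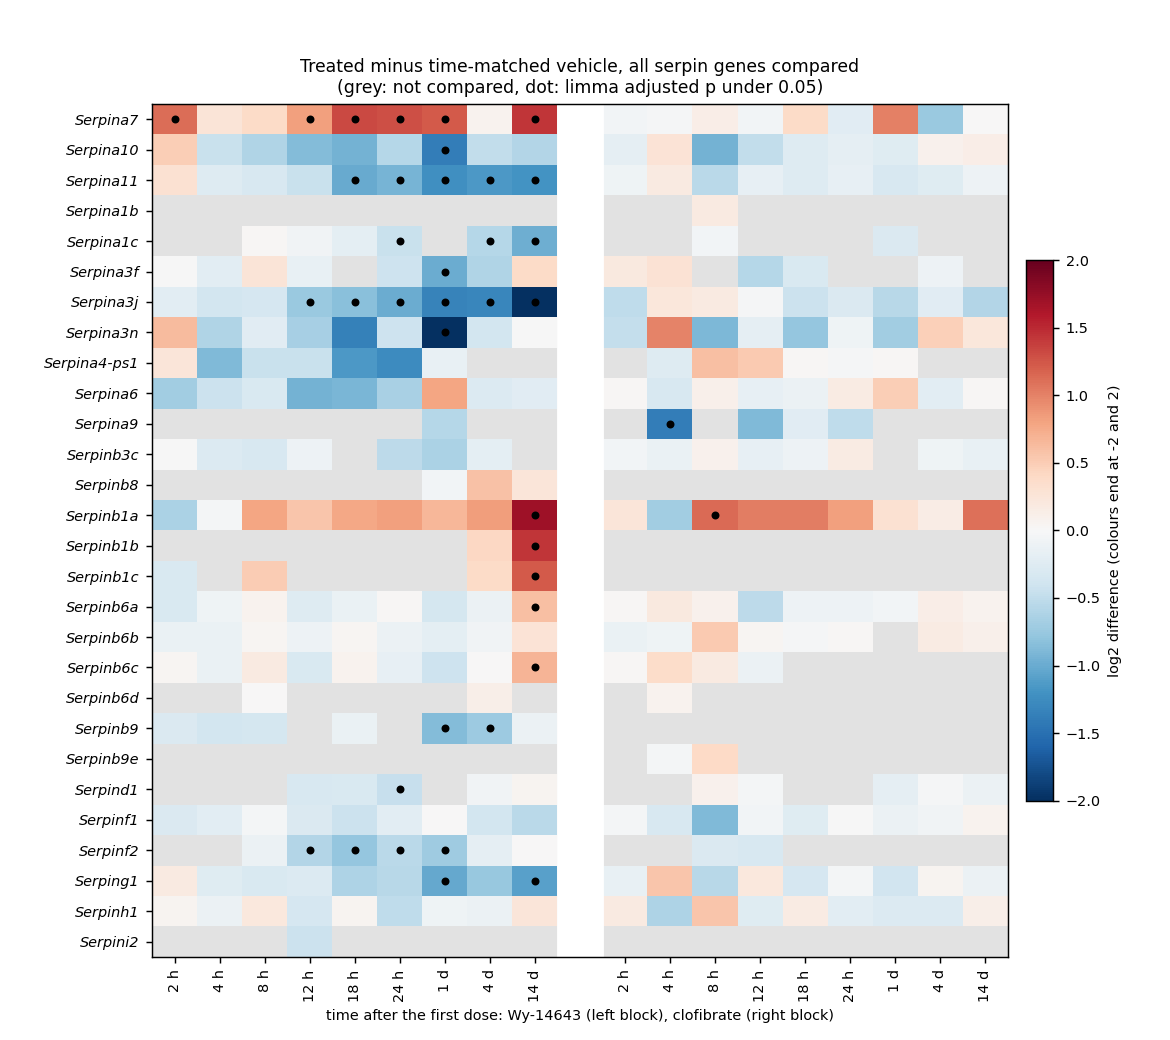
Log2 difference of treated minus time-matched vehicle for the 28 members compared at some time, by time in columns, Wy-14643 on the left and clofibrate on the right. Grey cells were not compared and dots mark a limma adjusted p under 0.05. The Wy-14643 block holds 37 dots, 11 of them higher, and the clofibrate block holds 2.

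Serpina7 encodes thyroxine-binding globulin, a serpin that carries thyroid hormone in plasma and inhibits no protease. Its difference under Wy-14643 was above 0 at all 9 times. The mean log2 difference was 0.88 ± 0.08 (SE, 3 arrays a group at 9 times, 1.84-fold, limma adjusted p = 3.88e-12). At 14 days the treated arrays read 11.78, 11.95 and 12.08 and the vehicle arrays 10.31, 10.56 and 10.64, so the groups did not overlap. The difference there was 1.44 ± 0.25, or 2.70-fold (limma adjusted p = 2.92e-05).

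The rise was present at 2 h, the earliest time sampled, when treated arrays read 12.20, 10.95 and 11.80 and vehicle arrays 10.84, 10.28 and 10.49. Treated replicate 1, at 12.20, had the lowest mean correlation with its group of the Wy-14643-treated arrays, at 0.948. It also stood apart at 2 h for Serpina10, Serpina11 and Serpinb1a. All 3 treated arrays lay above all 3 vehicle arrays (1.11 ± 0.25, limma adjusted p = 0.00433), although the call was lost without treated replicate 1 or vehicle replicate 2. The difference then fell to 0.26 at 4 h and 0.38 at 8 h, where it did not pass, and stood at 0.82, 1.32, 1.30 and 1.23 at 12 h, 18 h, 24 h and 1 day, all passing, the 12 h call being lost without treated or vehicle replicate 3. At 4 days the treated arrays read 11.40, 10.96 and 11.27 and the vehicle arrays 11.00, 10.85 and 11.58. These groups overlapped, with a difference of 0.06 and a 95% interval of -0.44 to 0.56. The size of the effect differed between times (limma moderated F, adjusted p = 0.00658).

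Serpina6, corticosteroid-binding globulin, is the cortisol-carrying counterpart. Its values lay close to the scanner limit, with a median of 15.77 over all arrays, and its mean difference with Wy-14643 was -0.41 ± 0.17 (limma adjusted p = 0.0418). Vehicle replicate 3 at 1 day read 11.70 while the other vehicle arrays of that time read 16.07 and 16.19, and the clofibrate arm's replicate 3 read 11.47. Without vehicle replicate 3 at every time the mean was -0.57, and without the 1 day groups it was -0.55, both passing. The call was lost under 8 of 16 alternatives, among them unscaled values (limma adjusted p = 0.188), and no single time passed.

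**Figure D2:**
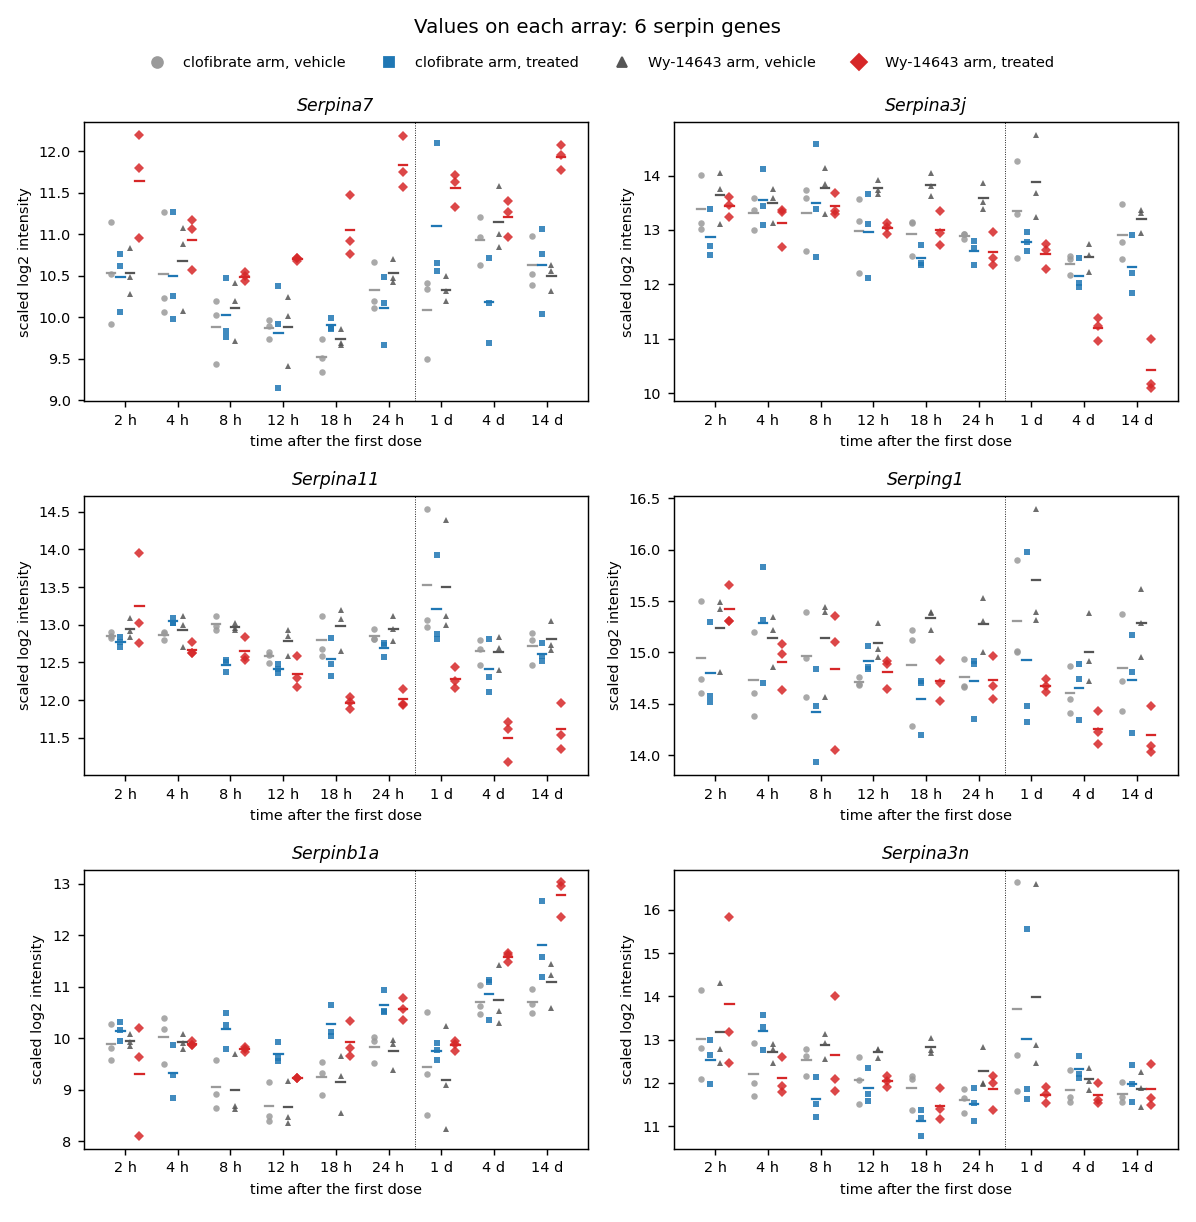
Scaled log2 intensity of 6 members on every array, with time after the first dose on the horizontal axis, a short bar at each group mean and a dotted line between single and daily dosing. Serpina7 lies higher and Serpina3j, Serpina11 and Serping1 lower in the Wy-14643-treated arrays of 14 days, Serpinb1a is highest there, and single arrays of Serpina3n reach about 16.6 in the 1 day vehicle groups.

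Serpina3j showed the deepest fall of any member. It was read from 1 probe, and whether that probe cross-hybridises with other Serpina3 genes was not tested. Its mean difference with Wy-14643 was -0.99 ± 0.09 (limma adjusted p = 2.07e-12), and the difference was below 0 at all 9 times. At 14 days the treated arrays read 10.17, 11.01 and 10.09 and the vehicle arrays 12.95, 13.36 and 13.31. The groups were far apart, with a difference of -2.79 ± 0.27, a 6.90-fold fall (limma adjusted p = 1.06e-10). Over the 16 alternatives run for it, that difference stayed between -3.08 and -2.62.

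The fall of Serpina3j built up with time (limma moderated F, adjusted p = 4.13e-05). It was -0.21 at 2 h, where treated arrays of 13.24, 13.61 and 13.46 overlapped vehicle arrays of 13.11, 13.76 and 14.05. It reached -0.74 at 12 h, the first time it passed (limma adjusted p = 0.0489, lost under 9 of 16 alternatives). It was -0.83 at 18 h, -0.99 at 24 h and -1.33 at 1 day, all passing, although the first was lost without 4 of the replicate numbers in turn and the second without 3 of them and on unscaled values. At 4 days treated arrays read 11.24, 10.95 and 11.38 against 12.22, 12.75 and 12.54 in vehicle, with no overlap and a difference of -1.31 ± 0.27.

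Serpina11, which like Serpina3j lies on chromosome 12, fell later and then held. Its difference was 0.30 at 2 h, with treated arrays of 13.95, 13.02 and 12.76 and vehicle arrays of 12.84, 12.91 and 13.09. These overlapped, and 1 treated array stood high. From 18 h on it passed at every time, at -1.01, -0.94, -1.22, -1.14 and -1.20 for 18 h, 24 h, 1 day, 4 days and 14 days. The 24 h call was lost on unscaled values, and the 1 day value was -0.78 without vehicle replicate 3, still passing. At 14 days treated arrays read 11.35, 11.96 and 11.53 and vehicle arrays 12.67, 13.05 and 12.73, with no overlap. At 4 days they read 11.17, 11.72 and 11.61 against 12.40, 12.84 and 12.69, again with no overlap. The mean was -0.69 ± 0.08 (limma adjusted p = 5.26e-10), and the effect differed between times (limma adjusted p = 0.00235).

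Serpina10 encodes the protein Z-dependent inhibitor of clotting factor X. Its mean difference with Wy-14643 was -0.60 ± 0.13 (limma adjusted p = 7.88e-05), below 0 at 8 of the 9 times, and its other probe gave -0.72. The largest fall, at 1 day, came with treated arrays of 11.91, 11.72 and 11.47 against vehicle arrays of 12.45, 12.39 and 14.43. The groups did not overlap, yet 1 vehicle array stood far above the others. The difference was -1.39 ± 0.38 (limma adjusted p = 0.00627), and -0.71 (adjusted p = 0.224) without vehicle replicate 3. At 18 h treated arrays of 11.49, 11.23 and 11.25 lay below vehicle arrays of 12.33, 12.16 and 12.32, a difference of -0.95 that did not pass in the main fit (limma adjusted p = 0.0652) and passed with the replicate block (0.0494). At 2 h the groups overlapped, with treated arrays of 14.68, 11.94 and 12.20 against 12.40, 12.19 and 12.78.

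Serping1 encodes the C1 inhibitor, which restrains the complement proteases C1r and C1s and the contact system. It fell with Wy-14643 by a mean of -0.52 ± 0.08 (limma adjusted p = 1.71e-06). At 14 days treated arrays read 14.03, 14.48 and 14.09 and vehicle arrays 15.29, 15.61 and 14.95. Every treated array lay below every vehicle array, and the difference was -1.08 ± 0.25 (limma adjusted p = 0.002). At 1 day treated arrays read 14.61, 14.74 and 14.67 against 15.39, 15.32 and 16.40, a difference of -1.03 that was -0.68 (limma adjusted p = 0.0754) without vehicle replicate 3. At 2 h it was 0.18 with overlapping groups, treated at 15.65, 15.30 and 15.31 and vehicle at 14.81, 15.42 and 15.49.

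The clotting serpins proper were near the scanner limit. Serpinf2, alpha-2-antiplasmin, was fully at the limit in vehicle and below it in treated livers at 12 h and 18 h, when treated arrays read 15.47, 15.58, 15.52 and 15.54, 15.28, 15.05. It was lower by at least 0.58 and 0.77 log2 units at these times (limma adjusted p = 7.65e-04 and 1.16e-05), also without scaling. At 14 days its difference was 0.00, with both groups near the limit. The calls for Serpinf2 at 24 h and 1 day, and for Serpind1 (heparin cofactor II) and Serpina1c at 24 h, did not pass on unscaled values, since scaling moved probes at the limit by -0.39 at 24 h and -0.62 at 1 day.

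Serpinc1, antithrombin, has a second, dimmer probe that reached the limit on 1 array. An alternative chosen after the data were seen used it and gave a mean Wy-14643 difference of -0.23, which passed, and a clofibrate difference of -0.12. Scaling alone moved Serpina1d, at the limit on every array, by a mean of -0.14 with Wy-14643 and -0.06 with clofibrate. The alternative probe was not fitted on unscaled values, so how much of its difference comes from scaling was not tested. Using the probe least often at the limit raised the count for the Wy-14643 mean from 9 to 10.

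The antitrypsin and antichymotrypsin genes were uneven. Serpina1c, an alpha-1-antitrypsin gene, was at the limit on all 3 vehicle arrays of 14 days and read 15.13, 15.03 and 15.22 with Wy-14643. It was lower by at least 0.97 log2 units (limma adjusted p = 5.73e-08), and at 4 days its difference was -0.57 with 1 vehicle array at the limit. Serpina1b and Serpina1d stayed at the limit, so no Wy-14643 comparison was possible for these, and the antitrypsin copies are close paralogs whose probes were not tested for cross-hybridisation.

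Serpina3n, an acute phase serpin related to antichymotrypsin, varied most between arrays. At 1 day treated arrays read 11.91, 11.75 and 11.54 and vehicle arrays 12.87, 12.47 and 16.60, where 1 vehicle array stood far above all others. The difference of -2.25 ± 0.63 passed (limma adjusted p = 0.00812) but was -0.94 (adjusted p = 0.269) without vehicle replicate 3, the array that also read high for Serpina10 and low for Serpina6. At 18 h treated arrays of 11.89, 11.39 and 11.16 lay below vehicle arrays of 12.76, 13.04 and 12.69, a difference of -1.35 that did not pass (limma adjusted p = 0.127). At 14 days the groups overlapped, treated at 11.65, 12.44 and 11.50 and vehicle at 11.89, 12.26 and 11.46. Its mean of -0.58 ± 0.21 (limma adjusted p = 0.0172) was -0.38 (0.158) without the 1 day groups. Serpina3f fell at 1 day by 0.99 (SE 0.32, limma adjusted p = 0.0218), which was lost without vehicle replicate 3 (adjusted p = 0.198).

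Among the intracellular serpins, Serpinb1a, an inhibitor of neutrophil elastase and cathepsin G, rose with Wy-14643 by a mean of 0.61 ± 0.12 (limma adjusted p = 5.27e-05). At 14 days treated arrays read 12.34, 12.96 and 13.02 and vehicle arrays 11.23, 10.58 and 11.44. The groups did not overlap, and the difference was 1.69 ± 0.37, or 3.23-fold (limma adjusted p = 8.39e-04).

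No other single time passed for Serpinb1a under Wy-14643. The differences from 8 h to 4 days lay between 0.56 and 0.84, and the groups did not overlap at 6 of the 9 times. From 8 h to 14 days the groups did not overlap for 30.4 to 41.3% of all genes. At 2 h treated arrays of 8.10, 9.64 and 10.20 overlapped vehicle arrays of 9.85, 10.08 and 9.93, with a difference of -0.64, and 1 treated array stood low. At 24 h treated arrays of 10.35, 10.78 and 10.56 lay above vehicle arrays of 9.89, 9.38 and 9.97, a difference of 0.82 that did not pass (limma adjusted p = 0.117). The effect differed between times (limma adjusted p = 0.0438). The vehicle level itself was not constant, at a mean of 8.67 at 12 h and 11.09 at 14 days in the Wy-14643 arm.

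Of 7 Serpinb genes of chromosome 13 compared at 14 days, 5 rose with Wy-14643, where 9.55% of all genes were called higher, and none fell. At 1 day 0 of 5 such genes were higher (7.48% of all genes) and 1 lower (15.9%). At 4 days 0 of 8 were higher and 1 lower, where 8.24% of all genes passed. For the mean 1 of 4 was higher (20.8%). Serpinb1b, listed in both groups only at 4 and 14 days, read 8.53, 8.86 and 8.65 with Wy-14643 at 14 days against 7.34, 7.06 and 7.34 in vehicle, with no overlap and a difference of 1.44 ± 0.16 (limma adjusted p = 2.55e-05). Serpinb1c read 8.71, 9.21 and 9.16 against 7.97, 7.44 and 7.98, with a difference of 1.23 ± 0.19 (limma adjusted p = 1.68e-05). These 3 Serpinb1 genes are close copies, and whether their probes cross-hybridise was not tested. Serpinb6a and Serpinb6c, of a group that inhibits cathepsin G, rose by 0.60 ± 0.16 and 0.68 ± 0.17 (limma adjusted p = 0.00602 and 0.0032), and for both the effect differed between times (0.0342 and 0.0204). The Serpinb6a call was lost without treated replicate 2. For the mean over all times Serpinb6a, Serpinb6b and Serpinb6c did not pass, at -0.06, -0.04 and -0.01.

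Serpinb9, an inhibitor of granzyme B, went down. At 1 day treated arrays read 6.74, 6.86 and 6.78 against 7.95, 7.66 and 7.36 in vehicle, a difference of -0.86 ± 0.17 with no overlap (limma adjusted p = 2.17e-04). At 4 days it was -0.72 ± 0.17 (limma adjusted p = 0.00377), and at 14 days -0.11, which did not pass. It was below 0 at all 7 times compared, and its values lay in the dim range of the arrays, with a median of 7.36.

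**Figure D3:**
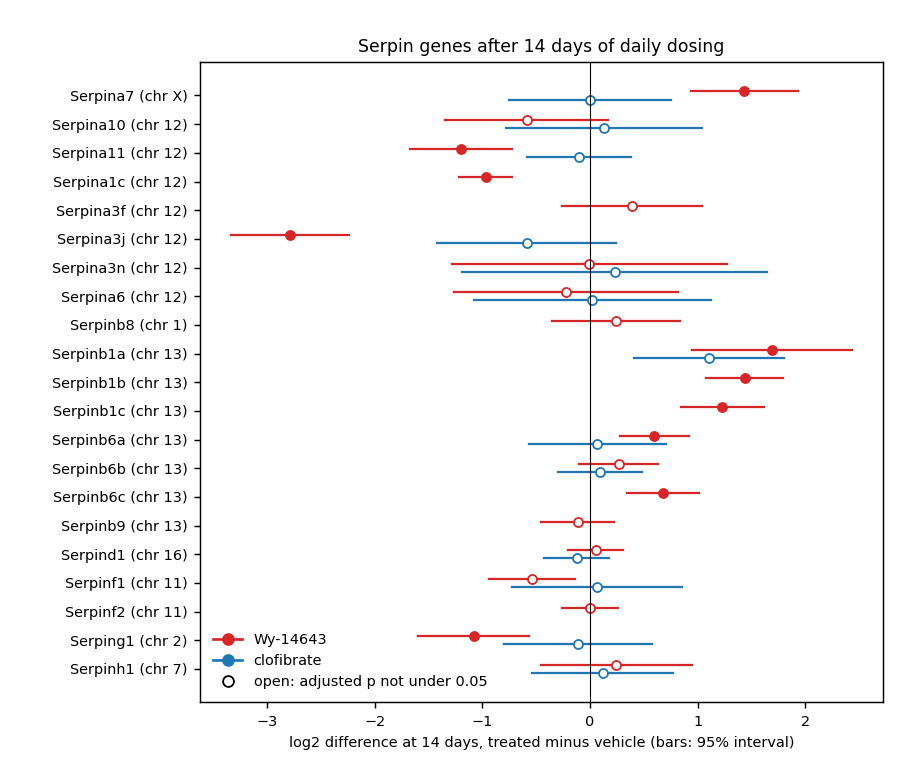
Log2 difference at 14 days for the 21 members compared under Wy-14643, with 95% intervals and the chromosome of each gene, red for Wy-14643 and blue for clofibrate where compared. Filled points passed the test. Of 7 chromosome 12 Serpina genes 3 were lower and 0 higher with Wy-14643, and of 7 chromosome 13 Serpinb genes 5 were higher and 0 lower. Of all genes 9.55% were higher and 5.28% lower with Wy-14643 at 14 days.

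Serpinh1, the collagen chaperone also called HSP47, did not pass with either compound. Its mean difference was -0.07 (95% interval -0.30 to 0.17) with Wy-14643, so a mean change of more than 0.30 log2 units lay outside that interval. Serpinf1, pigment epithelium-derived factor, fell slightly with Wy-14643, by a mean of -0.26 ± 0.07 (limma adjusted p = 8.44e-04), passed at no single time and lost the call on unscaled values.

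Clofibrate moved 1 serpin clearly. For its mean over 9 times 1 of 11 members passed, where 5.96% of all 8237 genes did: Serpinb1a, higher by 0.57 ± 0.11, or 1.48-fold (limma adjusted p = 7.62e-04). At 8 h treated arrays read 9.80, 10.27 and 10.48 and vehicle arrays 9.57, 8.92 and 8.65. The groups did not overlap and the difference was 1.13 ± 0.34 (limma adjusted p = 0.0257), a call lost without treated replicate 2 or 3 or vehicle replicate 2 or 3 and on unscaled values (0.0618). At 18 h treated arrays of 10.65, 10.04 and 10.13 lay above vehicle arrays of 8.90, 9.33 and 9.54, and at 14 days treated arrays of 12.66, 11.18 and 11.58 lay above 10.49, 10.67 and 10.95. Neither difference, 1.02 and 1.10, passed on its own (limma adjusted p = 0.621 and 1).

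Of 23 members compared with clofibrate at 1 or more times 2 passed at some time, against 10.4% of all genes. By time, clofibrate counts were 0 of 15 at 2 h (0.301% of all genes), 1 of 19 at 4 h (2.65%), 1 of 20 at 8 h (11.4%), 0 of 19 at 12 h (1.34%), 0 of 16 at 18 h (0.187%) and 0 of 15 at 24 h (0.0692%). After daily dosing they were 0 of 14 at 1 day (0.169%), 0 of 15 at 4 days (0.306%) and 0 of 14 at 14 days (0.0387%). By unadjusted limma p under 0.05, 2 members passed at 12 h, 1 each at 18 h, 24 h, 1 day and 14 days, and 0 at 2 h and 4 days. The 4 h call was Serpina9, a serpin of germinal centre B cells. Its treated arrays read 7.70, 8.30 and 7.57 against 9.01, 9.59 and 9.13 in vehicle, apart by -1.39 ± 0.32 (limma adjusted p = 0.0153). The call was lost without treated replicate 1 or 3 or vehicle replicate 2. The clofibrate effect changed with time for 0 of 11 members (2.49% of all genes), with 1 at an unadjusted limma p under 0.05.

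**Figure D4:**
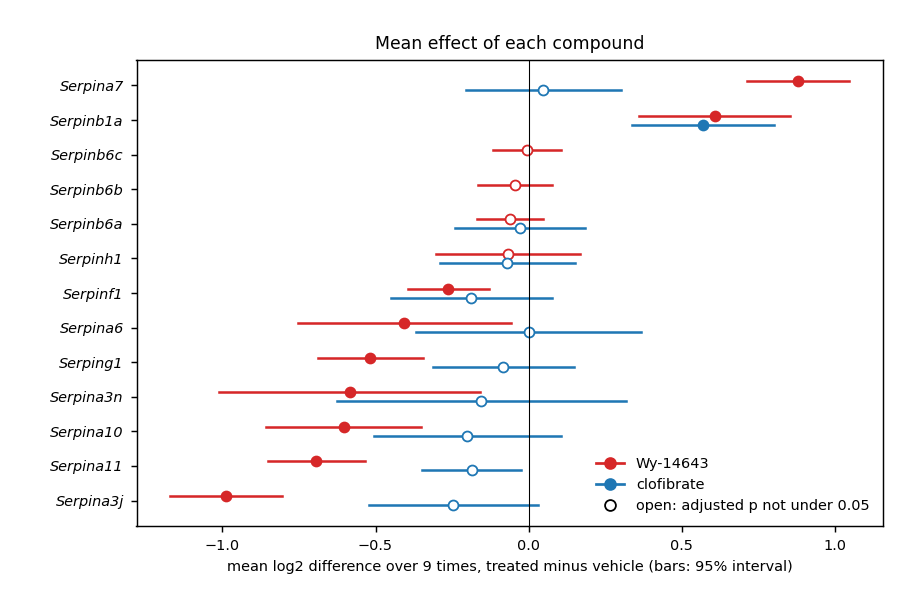
Mean log2 difference over the 9 times with 95% intervals for the 13 members compared at all times under Wy-14643 (red) and the 11 of these compared under clofibrate (blue). Filled points passed the test. Serpina7 at 0.88 and Serpina3j at -0.99 mark the ends for Wy-14643, and Serpinb1a is the member that passed with both compounds.

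Both compounds were given at the same dose and times, so their effects were compared directly, 9 times and the mean, each with p-values adjusted over all genes. For the mean 4 of 11 members differed, where 18.2% of all 8198 genes did (7.42% higher and 10.8% lower), namely Serpina7, higher with Wy-14643 by 0.83 ± 0.15 (limma adjusted p = 1.87e-05), and 3 lower. Serpina3j was lower by -0.74 ± 0.17 (limma adjusted p = 5.79e-04), Serpina11 by -0.51 ± 0.11 (4.63e-04) and Serping1 by -0.43 ± 0.15 (0.0254). The Serpina3j difference was lost without vehicle replicate 2 (limma adjusted p = 0.0521). The Serping1 difference was lost under 6 alternatives, among them unscaled values and the mean without the 1 day groups.

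For single times 1 of 13 members differed at 14 days (1.94% of all genes). That was Serpina3j, at -2.20 ± 0.50 (SE, limma adjusted p = 0.00388), where clofibrate-treated arrays read 11.85, 12.90 and 12.21 against 12.47, 12.78 and 13.48 in vehicle and overlapped. The call was lost without vehicle replicate 1 of every time in both arms. It held when only the near-copied clofibrate-arm vehicle array, replicate 1 at 14 days, was left out. With the replicate block Serpina7 also differed at 14 days (1.44, limma adjusted p = 0.0208) and at 24 h (1.52, 0.0112), with Serpinb3c at 24 h (-0.68, 0.0366). In that fit 6.42% of all genes differed at 14 days and 8.78% at 24 h.

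At the other times 0 members differed: of 15 at 2 h (0% of all genes), 16 at 4 h (0%), 17 at 8 h (0.032%), 18 at 12 h (0.703%), 13 at 18 h (2.88%), 14 at 24 h (2.33%), 12 at 1 day (0.911%) and 15 at 4 days (1.11%). By unadjusted limma p under 0.05, 1 did at 2 h, 2 each at 18 h, 24 h and 4 days, 1 at 1 day and 0 at 4 h, 8 h and 12 h. Serpinb1a gave a mean difference between compounds of 0.04 with a 95% interval of -0.30 to 0.38, and Serpinh1 one of 0.00 with -0.32 to 0.32. For these a difference of the size seen for Serpina7 lay outside the interval.

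**Figure D5:**
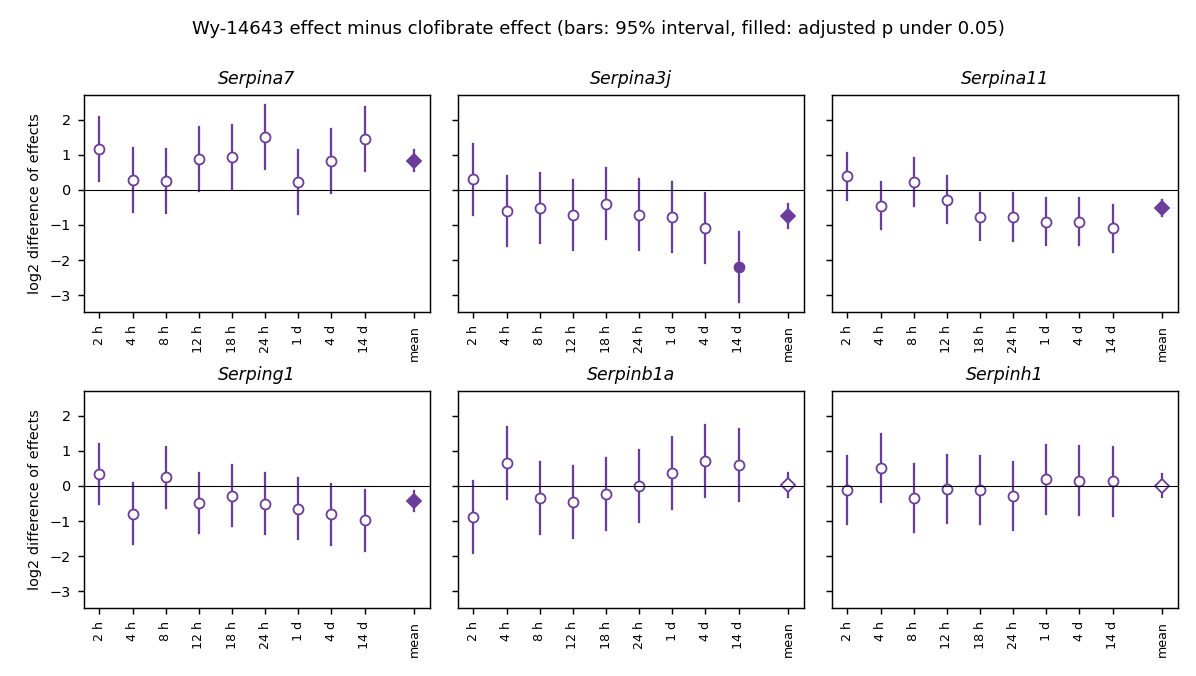
Wy-14643 effect minus clofibrate effect on the log2 scale for 6 members, at each time and for the mean, with 95% intervals. Filled points passed the test. The mean lies at 0.83 for Serpina7, at -0.74 for Serpina3j, at -0.51 for Serpina11 and at -0.43 for Serping1, and its interval spans 0 for Serpinb1a and Serpinh1.

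Some members also moved over the day without any compound. Among vehicle livers of 2 to 24 h, 3 of 17 members differed between times in the Wy-14643 arm (26.1% of all genes), namely Serpina7 (limma moderated F, adjusted p = 0.00826), Serpinb1a (0.0163) and Serpinb9 (0.00176). In the clofibrate arm 2 of 13 did (10.7% of all genes), Serpinb1a (0.0182) and Serpinb6b (0.0263). Serpina7 was lowest at 18 h in both arms, at 9.74 and 9.53, and Serpinb1a at 12 h, at 8.67 and 8.68. The vehicle arrays of the arms tended to deviate together, so the likeness of these courses is not independent support.

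Several dim members were not listed in every group. The share of all genes with such gaps in treated but not vehicle groups was not counted, so these counts only show what could be compared. Serpina9 had values on all 3 arrays in 8 of 9 vehicle groups of the Wy-14643 arm and in 2 of 9 treated groups, and Serpina4-ps1 in 9 and 7. Serpinb1c was listed in 5 clofibrate-treated groups and 1 vehicle group, never both at 1 time, so no clofibrate comparison was possible for it. Serpinb3c, Serpinb6b, Serpinb6d, Serpinb8, Serpinb9e, Serpina4-ps1 and Serpini2 were compared at 1 to 9 times with a compound and did not pass. Serpina12, Serpina3b, Serpinb3d and Serpine3 were complete in 1 to 3 groups and were never compared, Serpina1d and Serpinc1 were at the limit throughout, and Serpina1b was compared once, at 8 h of clofibrate, at 0.18.

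Lists of protease genes were read against the background of the Wy-14643 mean, in which 35.6% of all genes were lower and 20.8% higher. Not every listed protease is a target of serpins. Of 9 clotting and fibrinolysis genes tested, 7 were lower and 1 higher (median -0.34, all genes -0.07), with F11 at -1.26 and F7 at -1.02, both clotting factors, and F3 at 0.39. This list also holds F3, tissue factor, which is a cofactor, and Hgf, a growth factor, neither of them a protease. All 5 complement proteases tested were lower (median -0.68), with C1rb at -0.77 and Masp1 at -0.76. Of 6 cathepsins and caspases 4 were lower and 1 higher (median -0.26), with the cathepsins Ctsz at -0.32 and Ctss at -0.29 and the caspase Casp8 at 0.94. For the clofibrate mean, where 5.96% of all genes passed, 3 of 6 clotting and fibrinolysis genes were lower (F11 -0.44, F7 -0.35 and the hepatocyte growth factor activator Hgfac -0.33). There 0 of 5 complement proteases passed, and Casp8 was higher (0.29) among 4 cathepsins and caspases.

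Other inhibitors, carriers and regulators were counted for the same Wy-14643 mean. Of 16 non-serpin inhibitors 9 were lower and 3 higher (median -0.29), led by Itih4 at -0.82 and the metalloprotease inhibitor Timp1 at -0.79, against Tfpi2 at 0.59 and Pebp1 at 0.27. All 4 plasma carriers tested were lower (median -0.67), with Orm3 at -0.78 and transthyretin, Ttr, the other thyroxine carrier, at -0.70. Of 12 interleukin 6 and acute phase regulators 7 were lower and 1 higher (median -0.28), with Stat3 at -0.83, Il1rap at -0.71 and Cebpb at 0.28. Of 12 liver transcription factors 8 were lower and 2 higher (median -0.27), with Foxa3 at -0.81, Nr0b2 at -0.47, Creb3l3 at 0.62 and Ppara at 0.39. In these 4 lists 0 genes passed for clofibrate.

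The partners of Serpinh1 split. Of 14 collagen and collagen-processing genes 3 were higher and 3 lower with Wy-14643 (median -0.04), with the prolyl hydroxylase subunit P4ha2 at 0.61, Col4a2 at 0.39, P4hb at -0.40 and Col6a2 at -0.22. Of 11 heat shock genes 10 were higher and 0 lower (median 0.51), led by Hspb1 at 1.78 and Hspa1b at 0.83, while 2 of 9 passed with clofibrate, Hspb1 at 0.88 and Hspd1 at 0.43.

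Markers of other liver cells were counted against the same background, 35.6% of all genes lower. For the Wy-14643 mean, 8 of 9 Kupffer cell and macrophage markers were lower (median -0.25), 4 of 8 stellate cell, 2 of 6 endothelial, 1 of 4 lymphocyte and 2 of 2 mast cell markers, 0 of 1 neutrophil and 0 of 1 platelet marker, and of 3 cholangiocyte markers 2 were lower and 1 higher. The summed level of the 9 Kupffer cell markers ran from log2 15.4 to 16.6 on Wy-14643-treated and from 15.5 to 17.8 on vehicle arrays. Of the hepatocyte markers only Apob and Ttr could be tested, and Ttr was lower. No marker passed for clofibrate. Cps1, Cd68, Ly6g, Elane, Mcpt4, Cpa3, Gp1ba and Spp1 had no value on these arrays. The part of other cells in the serpin changes was not tested.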

How the data were processed

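Liver RNA was hybridised to single-colour Agilent arrays, 108 in all, 3 in each of 36 groups. The deposited table holds log2 intensities per probe, as its values show, and the image reading and normalisation behind them are unstated in the labels. It holds 41096 probes besides 93 controls, and 51.48% of its cells are empty. Gene names came from the platform annotation (32609 probes with 1 symbol, 44 with several, 8487 with no single symbol).

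Each array was shifted to a common 75th percentile over the 12210 probes listed on all arrays. Each gene was represented by 1 probe: among its probes never at the scanner limit those listed in the most groups, then the brightest. A gene whose every probe reached the limit used its brightest probe, and its folds are bounds. A value tied with 20 or more probes at an array's maximum counted as at the limit. Group means were fitted per arm, and over both arms for Wy-14643 minus clofibrate, with limma 3.58.1 in R 4.3.3 (moderated tests with a variance trend, Benjamini-Hochberg over all genes tested, threshold 0.05). Each arm's fit pools the spread of its 54 arrays. Errors are SE from the fit. With 3 arrays a group the number of arrays limits the precision, and where nothing says that samples came from separate animals the p-values measure only the spread between these arrays.

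Members called for a mean effect or mean difference of at least 0.5 log2 were shown by array at their largest effect and at other times, members called at a single time by their difference, and each list by its 2 highest and 2 lowest called genes. Serpina6, Serpinf1, Serpinh1 and members shown beyond that rule were chosen after their values were seen. The members and lists were chosen with earlier results of these data known. Same-numbered treated and vehicle arrays deviated together (every correlation over 0.1) in 16 of 18 comparisons, all but clofibrate at 8 h and 1 day, so a replicate block was also fitted. Alternatives covered scaling, probe choice, the variance trend, dim genes, the block, the near-copied array and each replicate left out. The scripts were tested on simulated data. Promoters were searched in RefSeq windows with Python 3.11.15.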

Additional observations from a re-analysis of the deposited data

Results flagged for a closer look

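The direct comparison of the compounds gave a difference past the limma threshold for 4 members over the mean of the 9 times. On the log2 scale, Wy-14643 minus clofibrate was 0.8304 for Serpina7, -0.7411 for Serpina3j, -0.5064 for Serpina11 and -0.4342 for Serping1. At 14 days the difference was -2.1996 for Serpina3j.

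Within the Wy-14643 arm the size of the effect differed between the 9 times for 6 of 13 members, where 20.2% of all genes did. That count was 3 with quantile normalization and 2 to 6 with 1 replicate number left out. The limma adjusted p of that test was 4.13e-05 for Serpina3j, 0.00235 for Serpina11, 0.00658 for Serpina7, 0.0204 for Serpinb6c, 0.0342 for Serpinb6a and 0.0438 for Serpinb1a.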

How the results depend on the processing

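Of 54 calls for single members, 30 held under every alternative run, 24 were lost under at least 1, and none changed direction. Quantile normalization gave counts of 0, 3 and 1 members for clofibrate at 4 h, 8 h and 12 h, 1 for its vehicle livers, 3 for the change of the Wy-14643 effect with time, and 1 each for the compound difference at 12 h and 24 h. The average of probes gave 0 for clofibrate at 4 h and 1 for its vehicle livers. Unscaled values gave 2 for clofibrate at 8 h, 9 and 3 for Wy-14643 at 18 h and 24 h, 5 for its vehicle livers, and 1 and 2 for the compound difference at 24 h and 14 days. The percentile over all listed probes gave 7, 2 and 1 for clofibrate at 8 h, its mean and its change with time, 1 and 11 for Wy-14643 at 8 h and 18 h, and 3 and 2 for the compound difference at 8 h and 14 days; at 8 h of clofibrate all 7 were lower, and at 18 h of Wy-14643 1 was higher and 10 lower. Leaving out genes with any array at the limit, chosen after the data were seen, gave 3 for Wy-14643 at 24 h. At 1 day quantile normalization gave 1 higher and 5 lower. Quantile normalization and the average of probes kept only probes listed on all arrays of the fit. Members with gaps were not compared there, among them Serpina9, Serpina3f, Serpinb9, Serpinb1b and Serpinb1c. With the percentile over all listed probes the median of all genes moved by -0.47 at 8 h of clofibrate. It moved by -0.22 at 18 h of Wy-14643. Otherwise the cause of the moves was not tested.

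The replicate block kept all 54 calls and gave 3 for clofibrate at 8 h, where the numbers did not pair the arrays, 7 for Wy-14643 at 18 h, and 2 each for the compound difference at 24 h and 14 days. In these fits 28.6%, 40.1%, 8.78% and 6.42% of all genes passed. It moved no other count by more than 1.5 times.

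Leaving out 1 replicate number at a time gave 0 to 1 for clofibrate at 4 h, 0 to 3 at 8 h, 0 to 1 for its change with time and 0 to 2 for its vehicle livers. For Wy-14643 it gave 0 to 1 at 2 h, 0 to 2 at 8 h, 1 to 3 at 12 h, 3 to 7 at 18 h, 5 to 12 at 1 day, 2 to 6 for the change with time and 1 to 3 for its vehicle livers. The count for the Wy-14643 mean was 7 to 8, against 9 with all arrays. The compound difference ranged from 0 to 2 at 14 days and from 2 to 4 for the mean. Without vehicle replicate 3, the array that stood apart at 1 day, the 1 day count was 5. Probes at the scanner limit give lower bounds, and dim probes without values limit what was compared.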
